A study of Mus musculus with 15 samples.

Results

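The receptors for the Fc part of IgG were measured in mouse bone marrow-derived macrophages (BMDMs). The members were the 5 genes *Fcgr1*, *Fcgr2b*, *Fcgr3*, *Fcgr4* and *Fcgrt*, taken by gene name from the 20089 genes listed in the expression table. Their values were not used as a filter, but earlier results of these data were known when the members were chosen. The 15 samples were 3 each of 5 groups. All came from wild-type C57BL/6 mice and all cells received M-CSF, the growth factor that makes macrophages from bone marrow cells, given for 3 days. Control cells had M-CSF and no further stimulus. The other groups had M-CSF with RANKL for 4 h, RANKL for 72 h (3 days), LPS for 4 h or LPS for 72 h. RANKL is the cytokine that turns these precursors into bone-resorbing osteoclasts, and LPS is a bacterial cell wall component that drives inflammatory activation. Cells grown with M-CSF only up to the 72 h time point were not analysed here, so stimulus and culture time cannot be told apart at 72 h. The labels do not say whether the 3 samples of a group came from separate mice, and the p-values measure only the spread between these samples, which may be technical. The age and sex of the mice are not given for these samples.

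Macrophages use these receptors to bind antibody-coated targets, engulf them and start or restrain inflammatory signalling. *Fcgr1* encodes FcγRI, the high-affinity receptor, while *Fcgr3* and *Fcgr4* encode FcγRIII and FcγRIV, which bind mainly immune complexes. All of these are activating: they pair with the common γ chain encoded by *Fcer1g*, whose ITAM motif is phosphorylated by Src-family kinases and recruits the kinase SYK. *Fcgr2b* encodes FcγRIIb, the inhibitory receptor, which carries an ITIM motif and recruits the phosphatase SHIP-1, the product of *Inpp5d*. *Fcgrt* encodes the heavy chain of the neonatal receptor FcRn, which pairs with β2-microglobulin inside the cell and returns IgG to the surface instead of degrading it. In osteoclast precursors, ITAM signalling through the γ chain is known as a co-stimulus to RANKL.

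GENCODE M21 on GRCm38 places *Fcgr2b*, *Fcgr4* and *Fcgr3* side by side on chromosome 1 (170958617 to 170976547 on the minus strand, 171018920 to 171029761 on the plus strand and 171051174 to 171064935 on the minus strand). *Fcgr1* lies on chromosome 3 (96282909 to 96293969, minus strand) and *Fcgrt* on chromosome 7 (45092990 to 45103851, minus strand). The promoters of the 2 receptors that fell together under RANKL and of the receptor that rose under LPS are shown so that their letters can be compared. They are RefSeq windows on GRCm38.p6, 250 bases before to 50 bases after the start site, written 5′ to 3′ on the strand of the gene. Capitals mark matches to 4 motifs searched on both strands: GAGGAA (the core bound by the macrophage factor PU.1), TTCNNNGAA (GAS, the interferon-γ-activated site), ISRE, the interferon-stimulated response element, read as a pair of GAAA with any 2 bases between them, and TGANTCA (AP-1).
Fcgr1, chr3:96293920-96294219, minus strand: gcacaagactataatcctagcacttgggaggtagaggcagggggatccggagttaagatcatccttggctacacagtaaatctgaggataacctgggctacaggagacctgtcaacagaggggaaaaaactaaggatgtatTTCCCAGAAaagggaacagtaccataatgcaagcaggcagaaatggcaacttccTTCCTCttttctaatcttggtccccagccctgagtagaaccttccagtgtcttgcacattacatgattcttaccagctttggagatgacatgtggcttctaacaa
Fcgr4, chr1:171018676-171018975, plus strand: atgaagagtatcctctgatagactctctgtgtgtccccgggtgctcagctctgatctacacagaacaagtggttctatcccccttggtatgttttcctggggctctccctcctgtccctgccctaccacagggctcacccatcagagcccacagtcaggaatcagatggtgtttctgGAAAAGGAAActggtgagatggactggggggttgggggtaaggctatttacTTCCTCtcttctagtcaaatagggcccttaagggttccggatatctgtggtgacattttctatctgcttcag
Fcgr2b, chr1:170976022-170976321, minus strand: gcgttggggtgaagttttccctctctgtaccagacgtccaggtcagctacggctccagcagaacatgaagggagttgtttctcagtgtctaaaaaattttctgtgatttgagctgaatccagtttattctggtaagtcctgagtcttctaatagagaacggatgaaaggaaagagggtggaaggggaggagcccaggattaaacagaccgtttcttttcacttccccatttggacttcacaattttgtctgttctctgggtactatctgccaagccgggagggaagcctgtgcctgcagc

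The *Fcgr1* window holds a GAS match that starts 109 bases before the start site and a PU.1 core match that starts 55 bases before it, on the opposite strand. The *Fcgr4* window holds an ISRE match that starts 73 bases before the start site and a PU.1 core match at 22 bases before it, also on the opposite strand. The *Fcgr2b* window holds none of the 4 motifs, and neither does that of *Fcgrt*. The first of 2 windows listed for *Fcgr3* holds a PU.1 core match only. These motifs are common: of 32851 RefSeq promoter windows of this length, 28.3% hold the PU.1 core, 8.30% GAS, 3.44% ISRE and 7.81% AP-1. The motifs were chosen after the promoters had been looked at, and a match is a description of the letters, not a bound site.

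Levels were given as FPKM, fragments scaled to the length of the transcript and to the mapped fragments of the sample, which can be compared between genes. Between 18306377 and 20330303 fragments lay on listed genes in each sample. The receptors were well covered, from 417 fragments for *Fcgrt* in its lowest sample to 23470 for *Fcgr1* in its highest, so that counting error was at most 4.90% of any value and replicate spread was the larger error. The samples are labelled as macrophages, and none of 7 markers (*Csf1r*, *Adgre1*, *Cd68*, *Itgam*, *Lyz2*, *Cd14* and *Mertk*) was at 0 in any group. Their summed FPKM lay between 5872 and 17323, and between 7210 and 8653 in control cells. The highest sum was that of LPS 72 h replicate 3, while replicates 1 and 2 of that group had 5951 and 7725 FPKM. Being above 0 is a weak check of the label, since no listed neutrophil or stromal gene was at 0 in any group either. Of 10 osteoclast markers, 9 rose under RANKL at 72 h, with sums of 1721 to 5474 FPKM against 155 to 280 FPKM in control cells. All 10 LPS-response markers rose at 4 h of LPS, from sums of 216 to 1055 FPKM to sums of 14991 to 16861 FPKM. Transcripts of other cells were present and differed between the groups. Sums of 10 neutrophil and precursor genes were 7913 to 24348 FPKM in control cells, 1852 to 7461 FPKM in RANKL 72 h and 152 to 1816 FPKM in LPS 72 h. Sums of 12 stromal genes were 167 to 354 FPKM in control cells, 429 to 1996 FPKM in RANKL 72 h and 129 to 567 FPKM in LPS 72 h. Replicate 3 had the highest neutrophil and the highest stromal sum of LPS 72 h. In bulk RNA, fewer cells of a type and less RNA per cell cannot be told apart, and the part of other cells in the results was not tested.

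*Fcgr1* had the highest mean of the receptors in control cells and the lowest mean of the activating receptors under RANKL at 72 h. Its control samples held 422, 321.7 and 150 FPKM, a mean of 298 ± 138 FPKM (SD, n = 3). RANKL 4 h samples held 320.9, 228 and 126 FPKM, lower than the control sample of the same number in 3 of 3 pairs, though the group ranges overlapped. RANKL 72 h samples held 41.5, 74.8 and 37.9 FPKM, a mean of 51.4 ± 20.4 FPKM, all below every control sample. LPS 4 h samples held 229, 214 and 173 FPKM and LPS 72 h samples 136, 151 and 168 FPKM, inside or close to the lower control values. In the order of mean levels, control, RANKL 4 h and LPS 4 h overlapped with their neighbours, LPS 72 h lay just below LPS 4 h without overlap, and RANKL 72 h lay below all others.

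The control samples differed from each other in *Fcgr1* far beyond counting error. The sample with the highest *Fcgr1*, replicate 1, also had the highest sum of LPS-response markers (1055 FPKM), and the sample with the lowest *Fcgr1*, replicate 3, had the lowest sum (216 FPKM). Replicate 2 lay between them in both (516 FPKM). In RANKL 72 h, replicate 2 had the highest *Fcgr1* and the lowest sum of osteoclast markers (1721 FPKM), while replicate 3 had the lowest *Fcgr1* and the highest sum (5474 FPKM). What part these differences have in the *Fcgr1* levels was not tested.

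*Fcgr4*, the other receptor that fell under RANKL, followed the same order of groups at its extremes. Control samples held 326.5, 212 and 134 FPKM (mean 224 ± 96.9, SD, n = 3). RANKL 4 h samples held 268, 185 and 111 FPKM. RANKL 72 h samples held 60.1, 65.4 and 57.1 FPKM (mean 60.9 ± 4.25), a narrow band below every other sample of the series. LPS samples held 219, 193 and 166 FPKM at 4 h and 199.5, 169.6 and 196 FPKM at 72 h. The control, RANKL 4 h and both LPS groups overlapped throughout, so only RANKL 72 h stood apart in level. Over the 15 samples, log2 levels of *Fcgr1* and *Fcgr4* had a Pearson correlation of 0.95, and 0.90 after each group's mean was taken off. These samples share 5 groups and replicate numbers and are not independent points.

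*Fcgr3* was the steadiest receptor among the control samples. Control samples held 246, 249 and 268 FPKM (mean 254 ± 12.2, SD, n = 3) and RANKL 4 h samples 231, 244 and 223 FPKM. RANKL 72 h samples held 243, 189.7 and 157 FPKM (mean 197 ± 43.7), below control without overlap, but by a small margin in replicate 1. LPS 4 h samples held 166.5, 184 and 155 FPKM (mean 169 ± 14.6), the lowest of the groups. LPS 72 h samples held 417, 365 and 354 FPKM (mean 379 ± 33.99), above every other sample of the series. LPS 72 h, control and RANKL 4 h therefore came in that order without overlap, while RANKL 72 h overlapped with both RANKL 4 h and LPS 4 h.

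*Fcgr2b*, the inhibitory receptor, responded to LPS. Control samples held 172, 147.5 and 64.1 FPKM (mean 128 ± 56.4, SD, n = 3). LPS 4 h samples held 312, 330.1 and 342 FPKM (mean 328 ± 15.2), and LPS 72 h samples 178, 172 and 248 FPKM (mean 199.6 ± 42.2). The 4 h values were above all others of the series, and the lowest 72 h value, 172.2 FPKM, barely cleared the highest control value, 171.6 FPKM. RANKL samples held 108, 100.1 and 59.5 FPKM at 4 h and 148, 108 and 84.8 FPKM at 72 h, both inside or close to the control range. *Fcgr2b* and *Fcgr3* resemble each other in sequence: 7.44% of the 50-base windows of *Fcgr2b* transcripts and 12.8% of those of *Fcgr3* also occur in another gene, mostly each other, falling to 2.41% and 3.53% for windows of 100 bases. How fragments from such stretches were divided is not given in the sources used here, so a small part of either level is uncertain. No window of *Fcgr1*, *Fcgr4* or *Fcgrt* was shared.

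*Fcgrt* had the lowest mean of the 5 genes in every group. Control samples held 29.4, 35.2 and 17.8 FPKM (mean 27.5 ± 8.86, SD, n = 3). RANKL samples held 28.6, 39.2 and 20.4 FPKM at 4 h and 41.7, 26.9 and 29.8 FPKM at 72 h. LPS samples held 18.0, 24.2 and 11.1 FPKM at 4 h and 17.0, 18.3 and 27.1 FPKM at 72 h. RANKL means were above and LPS means below control, but every neighbour in the order overlapped. Non-coding antisense genes overlap the loci of *Fcgr2b* and *Fcgrt*, and whether counting used strand is not given in the sources used here.

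**Figure D1:**
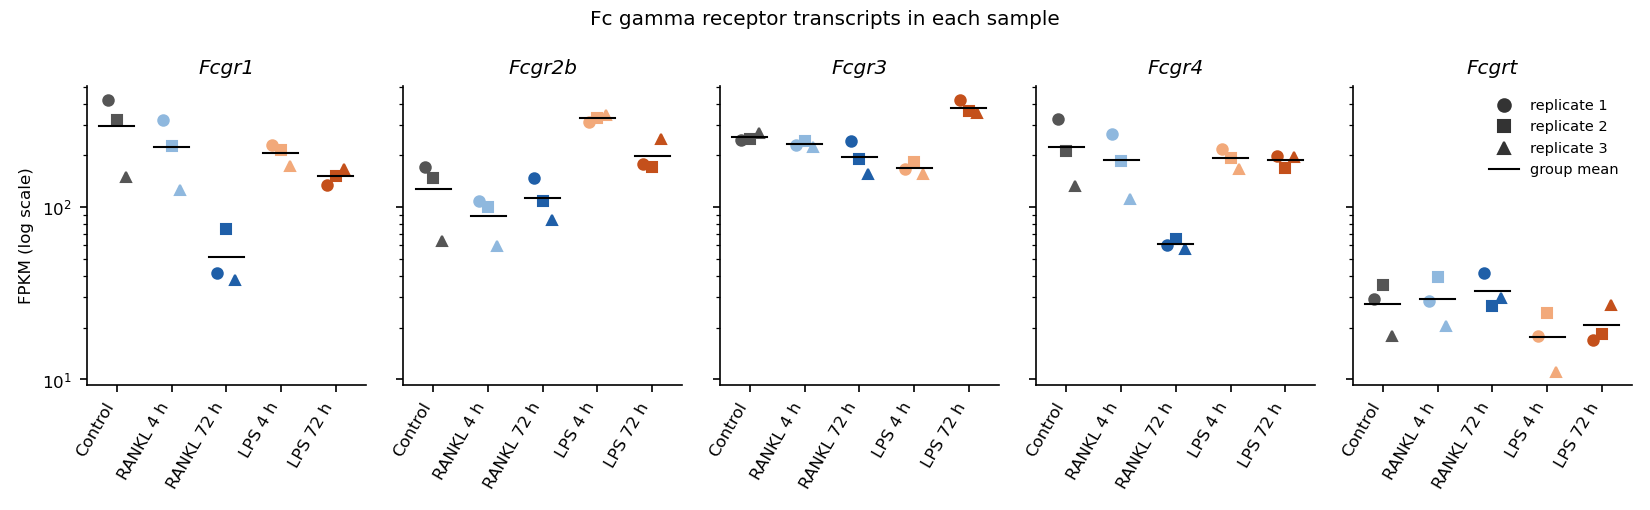
FPKM on a log scale in each of the 15 samples for the 5 receptors, with marker shapes for the replicate number and a line for the group mean. The RANKL 72 h samples of *Fcgr1* (37.9 to 74.8 FPKM) and *Fcgr4* (57.1 to 65.4 FPKM) lie below every other group, and the LPS 4 h samples of *Fcgr2b* (312 to 342 FPKM) above.

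RANKL at 72 h against control asks which receptors change as the precursors become osteoclasts. *Fcgr1* fell 5.56-fold and *Fcgr4* 3.45-fold, and no receptor rose. A gene was called changed at a Benjamini-Hochberg adjusted p under 0.05, from limma on log2(FPKM + 0.1) over 11743 genes, together with a fold above 1.5 or below 0.66. The log2 fold change was −2.48 ± 0.38 (SE) for *Fcgr1* (adjusted p = 0.000379) and −1.79 ± 0.30 for *Fcgr4* (adjusted p = 0.000787), each lower in 3 of 3 samples than the control of the same number. Over all tested genes 7.54% were called lower and 16.6% higher, with a median log2 fold change of 0.16. *Fcgr3* had −0.39 ± 0.14 (adjusted p = 0.0497), which passed the p threshold but not the fold limit. When each sample was centred on its median gene, *Fcgr3* had −0.61 and passed both. *Fcgr2b* had −0.09 (95% interval −0.79 to 0.62, adjusted p = 0.862) and *Fcgrt* 0.29 (−0.41 to 0.98, adjusted p = 0.529). Against RANKL 4 h, where 6.83% of genes were called lower and 16.4% higher, the same 2 receptors were called: *Fcgr1* at −2.10 ± 0.38 (adjusted p = 0.00129) and *Fcgr4* at −1.54 ± 0.30 (adjusted p = 0.00233).

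At 4 h of RANKL none of the 5 receptors was called in the limma fit. Estimates were −0.38 for *Fcgr1* (95% interval −1.19 to 0.43), −0.44 for *Fcgr2b* (−1.15 to 0.26), −0.13 for *Fcgr3* (−0.43 to 0.18), −0.25 for *Fcgr4* (−0.90 to 0.40) and 0.10 for *Fcgrt* (−0.60 to 0.80), on the log2 scale. Their unadjusted p-values lay between 0.197 for *Fcgr2b* and 0.756 for *Fcgrt*, and limma voom on fragment counts called none either. The fit that blocked on the replicate number also called none. That fit held all 5 groups, with LPS 72 h, whose numbers were not taken as pairing. It is therefore not a paired test of RANKL 4 h against control alone. *Fcgr1*, *Fcgr2b*, *Fcgr3* and *Fcgr4* were each lower than control in 3 of 3 same-numbered pairs, and *Fcgrt* in 1 of 3. Over these pairs the mean difference was −0.38 for *Fcgr1* (SD 0.12), −0.44 for *Fcgr2b* (SD 0.30), −0.13 for *Fcgr3* (SD 0.13) and −0.25 for *Fcgr4* (SD 0.046). The intervals above do not use the pairing. Few genes of any kind were called in this comparison, 0.111% higher and 0.00852% lower. The 95% intervals leave room for a fall of *Fcgr1*, *Fcgr2b* or *Fcgr4*, or a rise of *Fcgrt*, by more than the fold limit.

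LPS at 4 h against control asks which receptors change in early inflammatory activation. *Fcgr2b* rose 2.79-fold, with a log2 fold change of 1.48 ± 0.33 (SE, adjusted p = 0.00161 by limma), higher in 3 of 3 pairs of same-numbered samples. Over all tested genes 8.43% were called higher and 39.7% lower, and the median gene moved by −0.52. Relative to that median *Fcgr2b* was higher by 2.001. Without control replicate 3, whose *Fcgr2b* was the lowest, its log2 fold change was 1.04, and it was still called. *Fcgr3* had −0.59 ± 0.14 (adjusted p = 0.00268), a fold of 0.662 that missed the limit of 0.66, and it was called in limma voom on fragments at −0.60. That value is close to the median gene, with a difference of −0.07. *Fcgr1* had −0.42 (95% interval −1.23 to 0.39), *Fcgr4* −0.13 (−0.78 to 0.52) and *Fcgrt* −0.64 (−1.34 to 0.06), with adjusted p = 0.354, 0.727 and 0.104. The estimates of *Fcgr1* and *Fcgr4* turned to 0.15 and 0.43 when samples were centred on their median gene.

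At 72 h of LPS no receptor was called, while 13% of genes were called higher and 14.4% lower. *Fcgr3* came closest, with 0.57 ± 0.14 (SE, adjusted p = 0.00710 by limma), a fold of 1.49 just under the limit of 1.5. *Fcgr2b* had 0.74 ± 0.33 (adjusted p = 0.0928) and *Fcgr1* −0.86 ± 0.38 (adjusted p = 0.0925), each with an unadjusted p of 0.0402 and 0.0400. *Fcgr4* had −0.16 (95% interval −0.81 to 0.49) and *Fcgrt* −0.38 (−1.07 to 0.32). Between the LPS times, *Fcgr3* rose by 1.16 ± 0.14 (adjusted p = 8.96e-06) from 4 h to 72 h, where 44.2% of all genes were called higher, 13.9% lower, and the median gene moved by 0.52. Centred on the median gene, the difference in *Fcgr3* was 0.52 and under the fold limit. *Fcgr2b* was lower at 72 h than at 4 h by −0.74 ± 0.33, without overlap of the samples, but not called (adjusted p = 0.0617). *Fcgr1* had −0.43 (adjusted p = 0.324), also without overlap. After centring, *Fcgr2b* had −1.38 (adjusted p = 0.00543) and *Fcgr1* −1.08 (adjusted p = 0.0396), and both were called lower by limma.

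**Figure D2:**
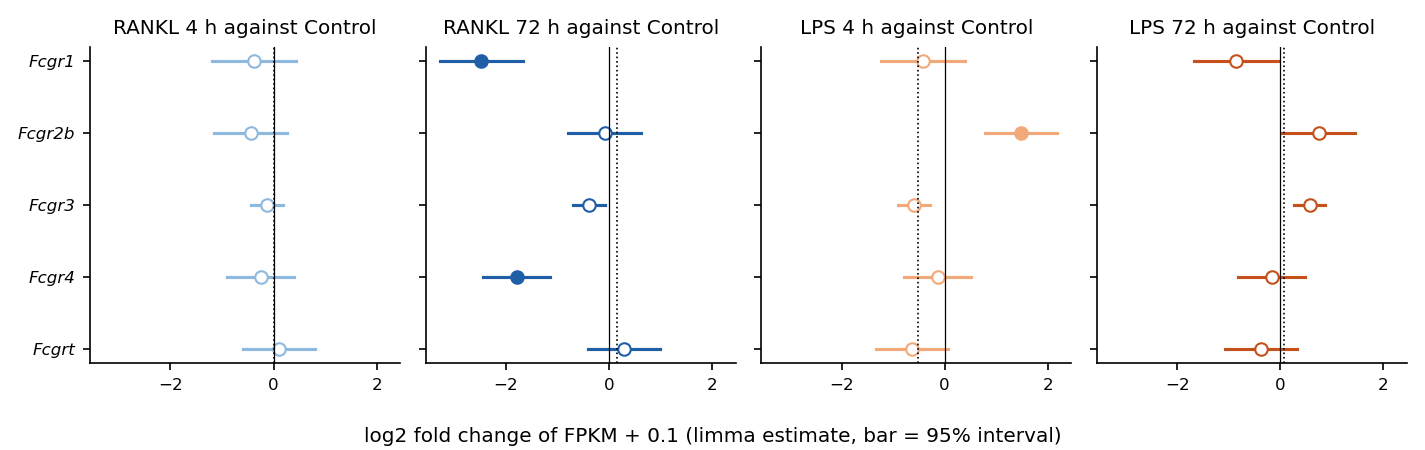
Log2 fold change of each receptor against control in the 4 stimulated groups (limma, 3 samples a group, bars for 95% intervals, filled points for called changes, dotted line for the median of all tested genes). Filled points are *Fcgr1* and *Fcgr4* in RANKL 72 h, at −2.48 and −1.79, and *Fcgr2b* in LPS 4 h, at 1.48.

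The stimuli were compared directly at the same time, since both share the control samples. At 4 h, *Fcgr2b* was lower in RANKL than in LPS by −1.92 ± 0.33 on the log2 scale (adjusted p = 0.000211 by limma). Here 8.98% of genes were called lower in RANKL and 41% higher, with a median of 0.53. *Fcgr3* was higher in RANKL by 0.47 ± 0.14 (adjusted p = 0.0116), under the fold limit, and its direction turned to −0.10 after centring on the median gene. *Fcgrt* was higher by 0.75 ± 0.33 (adjusted p = 0.0607). Same-numbered samples of these groups deviated together, and a fit that blocked on that number called the *Fcgrt* difference (adjusted p = 0.0425). *Fcgrt* was higher in RANKL in 3 of 3 same-numbered pairs, although the group ranges overlapped. At 72 h, 3 receptors were lower in RANKL than in LPS, against 12.8% of all genes called lower and 23.3% higher: *Fcgr4* by −1.63 ± 0.30 (adjusted p = 0.000666), *Fcgr1* by −1.62 ± 0.38 (adjusted p = 0.00329) and *Fcgr3* by −0.96 ± 0.14 (adjusted p = 0.000107). *Fcgr2b* had −0.83 ± 0.33 (adjusted p = 0.0527) and *Fcgrt* 0.66 ± 0.33.

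The balance of activating to inhibitory transcripts was read within each sample, as the sum of *Fcgr1*, *Fcgr3* and *Fcgr4* divided by *Fcgr2b*. In a ratio of genes within a sample, the sample's overall scaling cancels. Control samples had ratios of 5.80, 5.31 and 8.62, and RANKL 4 h samples 7.58, 6.57 and 7.73. RANKL 72 h samples had 2.34, 3.05 and 2.97, LPS 4 h samples 1.97, 1.79 and 1.45, and LPS 72 h samples 4.22, 3.98 and 2.89. The ratio was thus 2.32-fold lower than control in RANKL 72 h, 3.73-fold lower in LPS 4 h and 1.76-fold lower in LPS 72 h, on geometric means. None of these groups overlapped with control, each with a two-sided exact permutation p = 0.1, the smallest that 3 samples against 3 allow, so a p under 0.05 could not be reached. RANKL 4 h overlapped with control (log2 difference 0.18, exact permutation p = 0.5). RANKL 72 h and LPS 72 h overlapped with each other (log2 difference −0.40, exact permutation p = 0.3).

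Each activating receptor was also set against *Fcgr2b* alone. In RANKL 72 h, *Fcgr1* to *Fcgr2b* was 5.24-fold and *Fcgr4* to *Fcgr2b* 3.26-fold lower than control, while *Fcgr3* to *Fcgr2b* overlapped with control (ratios of 1.65 to 1.85 against 1.43 to 4.19). In LPS 4 h all of them were lower without overlap, by 3.74-fold for *Fcgr1*, 3.06-fold for *Fcgr4* and 4.21-fold for *Fcgr3*. *Fcgr1* to *Fcgr2b* was even among control samples, from 2.18 to 2.46, although the level of each gene differed widely among them. The 6 ratio comparisons were also made without *Fcgr3*, the receptor whose sequence is close to *Fcgr2b*: the RANKL 72 h log2 difference to control then went from −1.22 to −2.04.

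**Figure D3:**
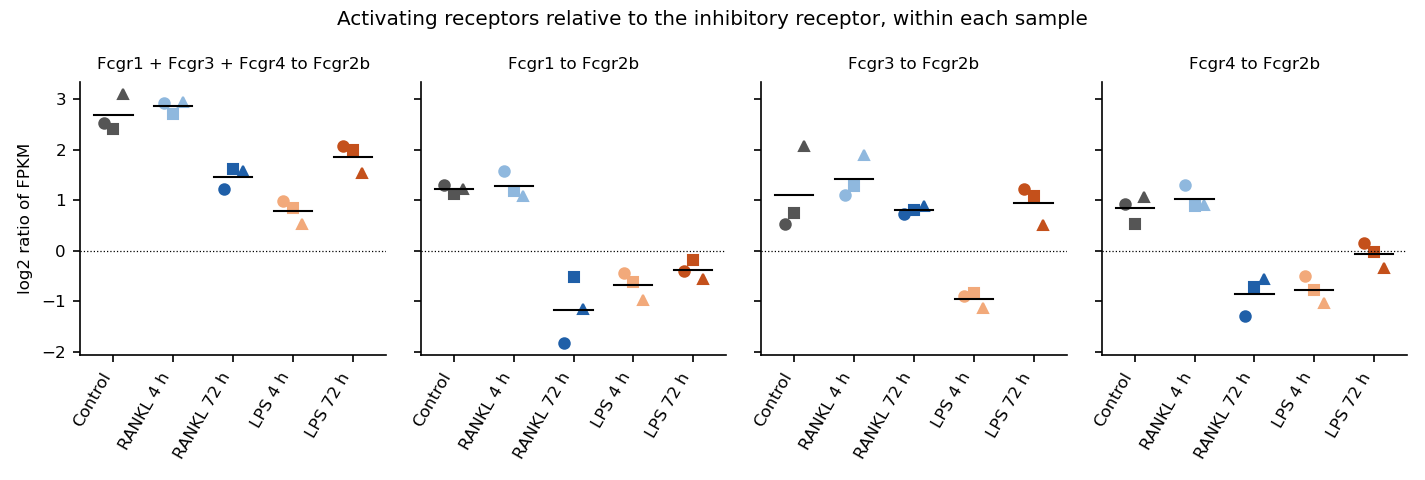
Log2 ratio of activating receptor FPKM to *Fcgr2b* FPKM in each sample, for the sum of *Fcgr1*, *Fcgr3* and *Fcgr4* and for each alone, with a line for the group mean and circles, squares and triangles for replicates 1, 2 and 3. The summed ratio lies at 5.31 to 8.62 in control and at 1.45 to 1.97 in LPS 4 h, and *Fcgr3* to *Fcgr2b* overlaps with control in RANKL 72 h.

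The FPKM of *Fcgr1*, *Fcgr2b*, *Fcgr3* and *Fcgr4* were also summed in each sample, to give the level of all Fcγ receptor transcripts and the share of each. The sum was 904 ± 276 FPKM (SD, n = 3) in control cells, 895 ± 50.1 FPKM in LPS 4 h and 918 ± 55.0 FPKM in LPS 72 h, which overlap. In RANKL 72 h it was 493, 438 and 337 FPKM, below the lowest control sample of 616 FPKM. *Fcgr2b* made up 13.7 ± 2.88% of the sum in control cells, 26.6 ± 2.92% in RANKL 72 h, 36.8 ± 3.69% in LPS 4 h and 21.7 ± 3.55% in LPS 72 h. *Fcgr1* made up 31.7 ± 6.42% in control cells and 12.3 ± 4.41% in RANKL 72 h. *Fcgr3* was the main transcript at 72 h under both stimuli, at 46.4 ± 3.06% in RANKL and 41.3 ± 4.22% in LPS, and made up 18.8 ± 1.04% in LPS 4 h. It also had the largest mean share in RANKL 4 h, at 33.3 ± 9.05%. In control cells it made up 30.5 ± 11.7%, with 43.5% in replicate 3, so control overlapped with both 72 h groups. The share of *Fcgr2b* in RANKL 72 h was larger although its own level was not called changed.

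**Figure D4:**
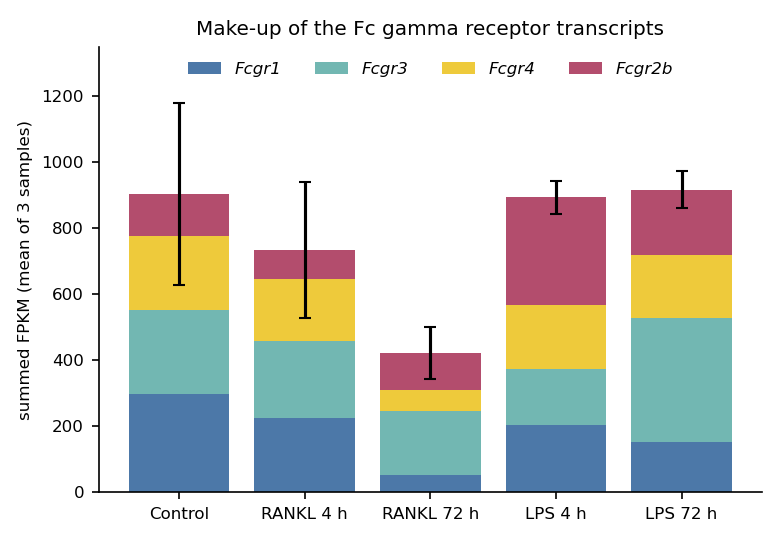
Mean FPKM of the activating receptors and of *Fcgr2b*, stacked for each group of 3 samples, with the SD of the summed FPKM as error bar. The sum is 423 FPKM in RANKL 72 h against 904 FPKM in control, and the *Fcgr2b* part is largest in LPS 4 h.

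The partner chains moved in the same direction as *Fcgr1* and *Fcgr4* in RANKL 72 h. *Fcer1g*, the common γ chain, held 1213, 1141 and 900.1 FPKM in control samples and 733, 802 and 620 FPKM in RANKL 72 h, all below control. Its log2 fold change was −0.59 ± 0.18 (SE, adjusted p = 0.0227 by limma), just inside the fold limit and not called, but it was called against LPS 72 h (−0.74 ± 0.18, adjusted p = 0.00390), where its level was 1198 ± 59.1 FPKM (SD, n = 3). *B2m*, the light chain of FcRn and of class I molecules, fell from 6425 ± 1106 to 3649 ± 418 FPKM (log2 fold change −0.81 ± 0.23 (SE), adjusted p = 0.0161). Without control replicate 1 or without RANKL 72 h replicate 3 the count of partner chains called was 0, as it was with no filter on low values. It was 2, with *Fcer1g* called as well, after centring on the median gene (with or without the block), without fold limits, and without control replicate 3, RANKL 72 h replicate 1 or RANKL 72 h replicate 2. *Fcgrt* itself had an estimate of 0.29 in the same comparison and was not called. LPS called neither partner chain at 4 h or 72 h against control.

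Downstream of the activating receptors, 20 signalling genes were read from a list. In RANKL 72 h, 2 rose and 2 fell (background 16.6% higher and 7.54% lower). After centring on the median gene 8 were called, counting both directions. With that centring, 1167 of all 11743 tested genes were called higher and 1428 lower. *Src*, a kinase needed for bone resorption by osteoclasts, rose from 4.35 ± 1.48 to 30.3 ± 12.6 FPKM (SD, n = 3). In LPS 4 h, 6 rose and 4 fell (background 8.43% higher and 39.7% lower), led by *Src* at 58.7 ± 3.02 FPKM and by *Lat2*, a membrane adaptor, which fell from 64.7 ± 11.5 to 23.3 ± 1.54 FPKM. *Syk* rose in LPS 4 h (44.7 ± 5.71 to 82.0 ± 6.70 FPKM, log2 fold change 0.88, adjusted p = 0.000661 by limma) and in LPS 72 h (80.7 ± 19.6 FPKM, log2 fold change 0.83, adjusted p = 0.00241), and had −0.05 in RANKL 72 h. *Lyn*, a kinase that phosphorylates both ITAM and ITIM motifs, was called in no comparison with control. In LPS 72 h, 2 genes of the list rose and 3 fell (background 13% higher and 14.4% lower), and *Rasgrp3*, a Ras activator, had the largest fall, from 0.799 ± 0.704 to 0.124 ± 0.1005 FPKM.

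The inhibitory side moved at 4 h of LPS. Of 10 genes that act with FcγRIIb or against ITAM signalling, none rose and 7 fell in LPS 4 h, with a list median of −0.94 against −0.52 over all tested genes and a background of 39.7% lower. When samples were centred on their median gene, 4 were called, counting both directions. With that centring, 1529 of all 11743 tested genes were called lower and 1871 higher. *Inpp5d*, which encodes SHIP-1, held 48.0, 59.6 and 58.7 FPKM in control samples and 10.7, 14.7 and 12.6 FPKM in LPS 4 h, without overlap. Its log2 fold change was −2.13 ± 0.14 (SE, adjusted p = 7.52e-08 by limma), in the comparison in which *Fcgr2b* rose by 1.48. At 72 h of LPS it was back at 55.5 ± 4.28 FPKM (SD, n = 3). *Dok2*, an adaptor that restrains Ras signalling, fell from 19.5 ± 3.01 to 4.15 ± 0.583 FPKM in LPS 4 h. *Ptpn6*, the phosphatase SHP-1, fell in LPS 72 h, from 184 ± 8.57 to 104 ± 7.97 FPKM (adjusted p = 0.000574 by limma). It was 1 of 2 list genes that fell there, and none rose (background 14.4% lower and 13% higher). The count of 2 was 1 without control replicate 1, control replicate 2 or LPS 72 h replicate 2. In RANKL 72 h no gene of this list was called (background 16.6% higher and 7.54% lower). After centring 1 was called, next to 1167 genes called higher and 1428 lower over all tested genes.

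**Figure D5:**
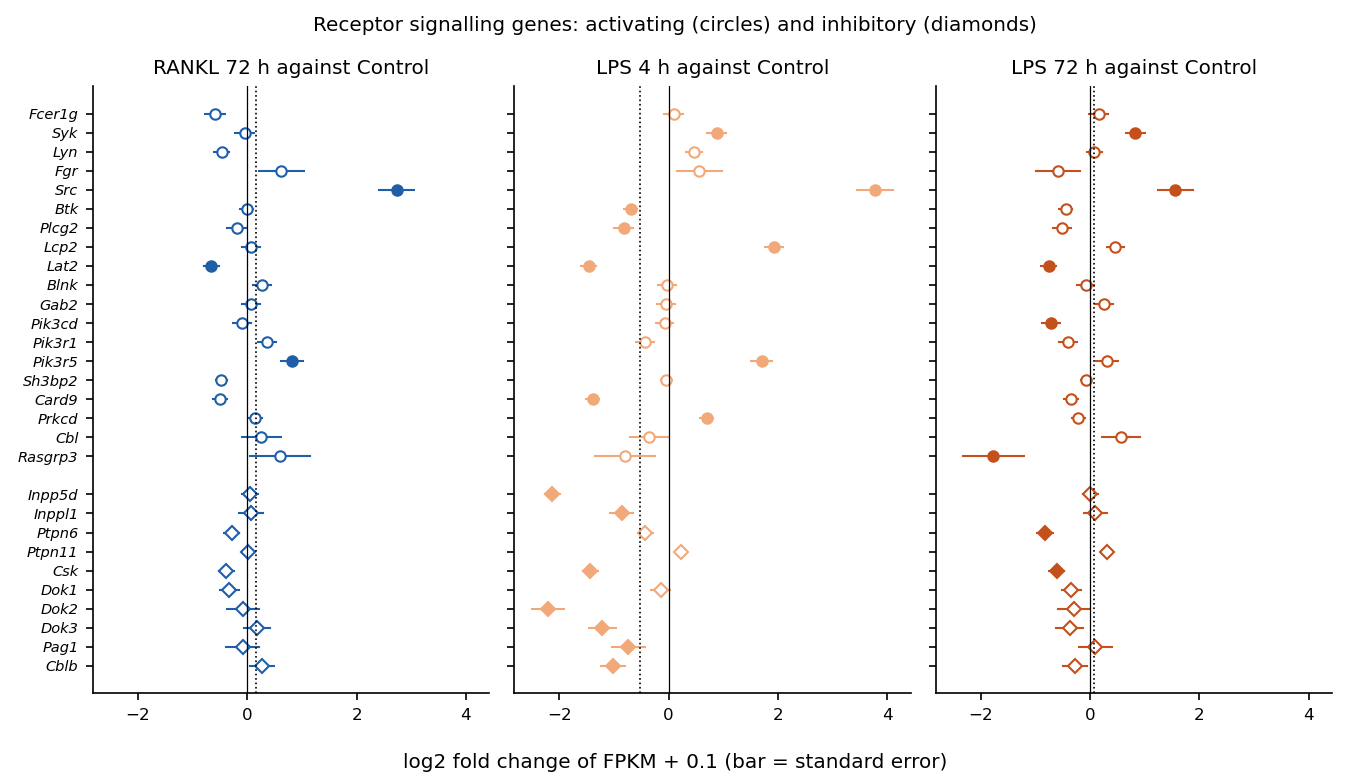
Log2 fold change against control for 19 activating (circles) and 10 inhibitory (diamonds) signalling genes in RANKL 72 h, LPS 4 h and LPS 72 h, with standard errors, filled points for called changes and a dotted line for the median of all tested genes. In LPS 4 h, 7 inhibitory genes are called lower, *Inpp5d* at −2.13, while *Src* (3.77) is the highest point.

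Of 25 genes of the engulfment machinery, 5 rose and none fell in RANKL 72 h, 5 rose and 4 fell in LPS 4 h, and 2 rose and 3 fell in LPS 72 h. The shares of all tested genes called higher and lower were 16.6% and 7.54%, 8.43% and 39.7%, and 13% and 14.4% in these comparisons. Without LPS 72 h replicate 3 the last count of 5 called genes was 8, without LPS 72 h replicate 1 it was 1, without LPS 72 h replicate 2 it was 2, and without control replicate 3 it was 3. *Myo10*, an unconventional myosin of phagocytic extensions, rose from 3.43 ± 0.442 to 13.3 ± 3.96 FPKM (SD, n = 3) in RANKL 72 h and to 14.2 ± 2.96 FPKM in LPS 4 h. *Limk1*, a kinase that acts on the actin-severing protein cofilin, fell from 6.70 ± 0.986 to 2.07 ± 0.489 FPKM in LPS 4 h. *Coro1a*, an actin-binding protein of leukocytes, fell from 197 ± 56.3 to 99.5 ± 69.7 FPKM in LPS 72 h, and *Sphk1*, a lipid kinase, rose from 0.294 ± 0.210 to 0.764 ± 0.289 FPKM. The pathway term for Fcγ receptor-mediated phagocytosis in the deposited annotation, a list added after the table had been seen, had 73 tested genes. Of these 12 rose and 3 fell in RANKL 72 h, 12 rose and 21 fell in LPS 4 h, and 9 rose and 8 fell in LPS 72 h, next to the same shares of all tested genes, and with medians of 0.13, −0.34 and 0.07 against 0.16, −0.52 and 0.08 over all tested genes. The count of 12 higher in RANKL 72 h was near the background. In RANKL 4 h no gene of any of these lists was called.

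Of 14 genes of other immunoglobulin receptors and Fc receptor-like proteins 8 passed the filter on low values, and of these 5 fell and 1 rose in RANKL 72 h, 6 fell and 1 rose in LPS 72 h, and 2 rose and 1 fell in LPS 4 h. Of all tested genes 7.54%, 14.4% and 39.7% were called lower and 16.6%, 13% and 8.43% higher in these comparisons. With genes limited to a mean of at least 1 FPKM, 3 in RANKL 72 h and 4 in LPS 72 h were called in either direction, in place of 6 and 7. *Fcmr*, the IgM receptor known from B cells, had 2.92 ± 0.917 FPKM (SD, n = 3) in control cells, 0.0218 ± 0.0378 FPKM in RANKL 72 h and 0.0444 ± 0.0514 FPKM in LPS 72 h. *Fcrl1*, another B cell gene, fell from 2.65 ± 0.946 to 0.955 ± 0.259 FPKM in LPS 4 h. *Fcrlb*, an Fc receptor-like gene, rose in all of these comparisons, from 0.238 ± 0.117 FPKM to 1.35 ± 0.311 FPKM in RANKL 72 h, 3.05 ± 0.700 FPKM in LPS 4 h and 1.02 ± 0.201 FPKM in LPS 72 h. Of 6 tested B cell markers, 5 fell in RANKL 72 h and 6 in LPS 72 h, with sums of 17.0 to 21.6 FPKM in control, 5.08 to 7.29 FPKM in RANKL 72 h and 0.497 to 2.26 FPKM in LPS 72 h. Of 7 tested mast cell and basophil markers, 7 fell in RANKL 72 h and 6 in LPS 72 h. This list shares genes with the receptor list above, and the shared genes fell at 72 h under both stimuli, so the counts are not separate. The part of these cells in the receptor levels was not tested.

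The genes with the most similar pattern were found by the Pearson correlation of log2 levels over the 15 samples. The 3 most like *Fcgr1* were *Irf7*, a transcription factor of interferon induction (Pearson r = 0.97), *Bst2*, the virus-tethering protein tetherin (0.96), and *Lgals3bp*, a secreted glycoprotein (0.95). The 3 most like *Fcgr4* were *H2-T23*, a non-classical class I gene (0.96), *Irf7* (0.96) and *Bst2* (0.95). *Irf7* averaged 1022 FPKM in control cells, 206 FPKM after 72 h of RANKL and 1066 FPKM after 4 h of LPS. Nearest to *Fcgr2b* were *Cp*, which encodes ceruloplasmin (0.94), *March1*, a ubiquitin ligase of antigen-presenting cells (0.91), and *Sppl2a*, a membrane protease (0.91). *Cp* rose from 1.12 to 13.0 FPKM in LPS 4 h on group means. Nearest to *Fcgr3* were *Slc25a35* (0.96), *Tmem63a* (0.96) and *Gtpbp1* (0.95), and nearest to *Fcgrt* were *Tbc1d4* (0.87), *Sepp1* (0.87) and *Pyroxd2* (0.87). These are descriptions over samples that share 5 groups.

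A list of interferon-response genes was read beside these receptors. Of its 19 tested genes 10 fell and none rose in RANKL 72 h, with a median log2 fold change of −1.54 against 0.16 over all tested genes and a background of 7.54% lower. With the replicate number as a block 13 fell. *Ifit3*, an interferon-induced gene, averaged 285 ± 215 FPKM (SD, n = 3) without a stimulus, against 23.4 ± 5.96 FPKM after 72 h of RANKL. In LPS 4 h, 12 rose and none fell (13 rose with the block, background 8.43% higher), with a median of 2.65, and *Cxcl10*, an interferon-induced chemokine, went from 49.9 ± 55.6 to 4890 ± 334 FPKM. In that comparison neither *Fcgr1* nor *Fcgr4* was called. In LPS 72 h, 5 fell and none rose (background 14.4% lower and 13% higher), with a median of −0.55 against 0.08 over all tested genes. *Ifit2* averaged 20.5 ± 12.5 FPKM there, against 200 ± 151 FPKM in control. The control samples of these genes also spread widely, and without control replicate 1 the LPS 72 h count was 3, and without control replicate 3 it was 8. Without LPS 72 h replicate 1 it was 3.

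The protein-coding neighbours of the loci were read for comparison. *Fcrla*, beside *Fcgr2b* on chromosome 1, averaged 1.502 FPKM in control cells and 0.263 FPKM after 72 h of RANKL, and was called lower at −2.32 (adjusted p = 0.0152 by limma), while *Fcgr2b* had −0.09. Of 6 tested B cell markers 5 fell in the same comparison, and the part of other cells in the *Fcrla* level was not tested. *Cfap126*, beyond *Fcgr3*, was called higher in RANKL 72 h at 1.15 (adjusted p = 0.0146). Within the cluster itself *Fcgr4* fell while *Fcgr2b* and *Fcgr3*, on either side of it, were not called in RANKL 72 h. *Rcn3*, beside *Fcgrt*, averaged 8.17 FPKM in control cells and 24.5 FPKM after 72 h of RANKL (adjusted p = 0.0669). *Hist2h2bb* and *BC107364*, which flank *Fcgr1*, averaged under 0.1 FPKM in every group.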

How the data were processed

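RNA-seq of BMDMs was analysed in 15 samples, grouped by their titles. The authors deposited FPKM in 1 table, with StringTie and Ballgown named in their methods as the tools behind them. The submitters' processing notes also name the builds GRCm38.p4 and mm10, with no role. The aligner and strand setting are not given in the sources used here. The table ends in an incomplete line, and genes after it in alphabetical order were not analysed here. FPKM scales each sample to its mapped fragments, so a rise of abundant transcripts lowers the values of the rest.

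FPKM of each gene were whole multiples of a step, from which fragments were recovered for 14485 of 14485 genes above 0 in at least 3 samples, with 100% of values within 0.01 of a whole number. log2(FPKM + 0.1) was tested with limma 3.58.1 (R 4.3.3; lmFit, eBayes with trend) in 1 fit of the 5 groups over the 11743 genes that averaged 0.1 FPKM or more, and p-values were adjusted by Benjamini-Hochberg over all of them. A fold change on this scale understates the change of low genes, and most where a level is near or below 0.1 FPKM. The fold limits are those of the study, which used an unadjusted p. Called genes had an adjusted p under 0.05. Ratios were compared by two-sided exact permutation tests. The recovery and the fit were tested on simulated data. Python 3.11.15, numpy 2.4.6, pandas 2.3.3, scipy 1.17.1 and matplotlib 3.10.9 were used.

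The members and lists were chosen with earlier results of these data known. Named genes were the members, *Fcer1g*, *B2m*, *Syk*, *Lyn*, *Inpp5d* and *Ptpn6*, the largest called rise and fall of each list in each comparison with control, the 3 genes most like each member among genes averaging 1 FPKM or more, and the protein-coding neighbours of each locus. Some genes that this rule names are not reported here.

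Replicate numbers come from the titles, which do not say what a number shares. Deviations from group means, over 9486 genes, were correlated between same-numbered samples above 0.1 in every pair among the groups other than LPS 72 h (mean r of 0.21 to 0.76), so numbers were taken as pairing those groups. They were not above it in every pair with LPS 72 h (mean r of -0.13 to 0.08). Alternatives covered the pseudocount, the filter, scaling, the groups in the fit, the replicate block, the trend, the call rule, limma voom and leaving out each replicate. The replicate block on centred samples was added after seeing the data.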

Additional observations from a re-analysis of the deposited data

Results flagged for a closer look

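In each of these results RANKL and LPS at the same time differed by a direct contrast in the limma fit (Benjamini-Hochberg adjusted p). At 4 h, *Fcgr2b* differed by -1.92 ± 0.33 on the log2 scale (SE, adjusted p = 0.000211), lower in RANKL in 3 of 3 same-numbered pairs. At 72 h, *Fcgr1* differed by -1.62 ± 0.38 (adjusted p = 0.00329), *Fcgr3* by -0.96 ± 0.14 (adjusted p = 0.000107) and *Fcgr4* by -1.63 ± 0.30 (adjusted p = 0.000666), each lower in RANKL without overlap of the samples. With 3 samples a group, single samples that stand apart from the rest were not tested for.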

How the results depend on the processing

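Over 19 alternatives for each comparison, no called receptor changed sign. The counts of receptors called in RANKL 72 h against RANKL 4 h (2) and in RANKL 4 h against control (0) were the same under all 19. In RANKL 72 h against control the count of 2 was 3, with *Fcgr3* added, after centring on the median gene (with or without the block) and without fold limits. Between RANKL 72 h and LPS 72 h the count of 3 became at most 4. In LPS 4 h against control the count of 1 was 2 with FPKM rescaled to equal sums, without fold limits and with limma voom, and 1 to 3 when a replicate was left out. In LPS 72 h against control the count of 0 was 1 with FPKM rescaled to equal sums, without fold limits and with the replicate block (*Fcgr1*, adjusted p = 0.0408), 2 with the unadjusted p of the study's rule, and 0 to 2 when a replicate was left out. In RANKL 4 h against LPS 4 h the count of 1 was 2 with the replicate block, the unadjusted p and no fold limits, and 1 to 2 when a replicate was left out. In LPS 72 h against LPS 4 h the count of 1, *Fcgr3* higher, was 2 with the replicate block, the unadjusted p or only the 2 groups in the fit, where *Fcgr2b* was added as lower, and 1 to 2 when a replicate was left out. It was also 2 with centring, alone or with the block, but there *Fcgr3* was lost and *Fcgr1* (-1.08) and *Fcgr2b* (-1.38) were called lower. In the pairs with LPS 72 h samples share only a number, and there the block also called *Fcgr2b* against RANKL 72 h (adjusted p = 0.0337) and against LPS 4 h (adjusted p = 0.0405). The block changed no other receptor call than these and *Fcgrt* in RANKL 4 h against LPS 4 h.

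Centring on the median gene, with or without the block, lowered *Fcgr3* in LPS 72 h against LPS 4 h from 1.16 to 0.52 and out of the call. It turned uncalled log2 estimates to the other side of 0: *Fcgr1* in LPS 4 h against control to 0.15 and in RANKL 4 h against LPS 4 h to -0.53, *Fcgr4* in LPS 4 h against control to 0.43, *Fcgr3* in RANKL 4 h against LPS 4 h to -0.10, and *Fcgrt* in LPS 72 h against LPS 4 h to -0.38 and in RANKL 72 h against RANKL 4 h to -0.037. Centring also moves the split of all called genes in LPS 4 h against control from 990 higher and 4660 lower to 1871 and 1529, and in RANKL 72 h against control from 1951 and 886 to 1167 and 1428. Equal sums turned *Fcgr2b* in RANKL 72 h against control to 0.030 and *Fcgr4* in LPS 72 h against LPS 4 h to 0.020.

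Leaving out 1 replicate also moved uncalled estimates across 0. The range was -0.27 to 0.41 for *Fcgr1* in RANKL 4 h against LPS 4 h and -0.52 to 0.19 for *Fcgr2b* in RANKL 72 h against control. For *Fcgr4* it was -0.58 to 0.082 in RANKL 4 h, -0.46 to 0.19 in LPS 4 h and -0.49 to 0.16 in LPS 72 h against control, -0.42 to 0.21 in RANKL 4 h against LPS 4 h and -0.13 to 0.066 in LPS 72 h against LPS 4 h. For *Fcgrt* it was -0.18 to 0.34 in RANKL 4 h against control, -0.056 to 0.41 in RANKL 72 h against RANKL 4 h and -0.036 to 0.52 in LPS 72 h against LPS 4 h. Without *Fcgr3* the log2 ratio of activating receptors to *Fcgr2b* differed by -2.04 in RANKL 72 h against control, -1.26 in LPS 72 h against control, 1.89 in RANKL 4 h against LPS 4 h and -0.79 in RANKL 72 h against LPS 72 h. Replicate spread, not depth, limits these results. The causes of these shifts were not tested.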
